A study of Drosophila melanogaster with 8 samples.

Results

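The comparison described here set zen[7] homozygous gastrulae against zen[7]/TM3, ftz-lacZ heterozygous gastrulae of Drosophila melanogaster, both at stage 6-7, by RNA sequencing of whole embryos. It rests on 4 of the 8 libraries of the series, 2 replicate libraries per genotype, and on every gene of the count tables, and the other 4 libraries hold the same genotypes at stage 5, the cellular blastoderm. Each library came from a pool of embryos (N = 100, per the labels), and how these were divided between the replicates is not described in the labels, so the spread between replicates may be partly technical. In homozygotes both copies of chromosome 3 are zen[7], and in heterozygotes 1 of them is TM3, a balancer of chromosome 3 that bears a ftz-lacZ transgene. The zen[7] allele is thus present in both genotypes, and no library without it was compared. Homozygotes were recognised by PCR, from a missing lacZ product together with a control product from Dtg. A lacZ product is also given by embryos whose homologues are both TM3, and the share of those in the heterozygous pools is not known. The genotypes also differ along the whole of chromosome 3. Homozygosity for the zen[7] allele and the exchange of TM3 for another zen[7] chromosome therefore cannot be told apart. This holds for genes on chromosome 3 and for genes off it. The question is which transcripts of the early gastrula differ between zen[7] homozygotes and heterozygotes.

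The gene zen (zerknüllt) encodes a homeodomain protein of the dorsalmost cells of the blastoderm. There, high activity of Dpp, a BMP ligand, keeps zen on in a narrow dorsal stripe, and zen in turn is needed for those cells to become the amnioserosa, a thin extraembryonic epithelium that later drives germ band retraction and dorsal closure. At stages 6 and 7 the mesoderm folds in along the ventral side, the germ band starts to extend, and the dorsal cells begin to take on the amnioserosa shape and expression programme.

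The 4 libraries held 31896529 to 35036734 reads counted in genes, and a further 14.8% to 18.2% of each table's total was given to no gene. Levels are given as CPM, counts scaled to a common library size with TMM factors, in the order replicate 1 and replicate 2 of each genotype. A gene was called when its Benjamini-Hochberg adjusted p from edgeR's quasi-likelihood test, over all 9360 genes with enough counts, was under 0.05, and rises, falls and log2 changes are homozygous over heterozygous. In a principal component analysis of the 4 libraries alone, the first component held 51.4% of the variance, with the homozygous libraries at 17.02 and 21.1 and the heterozygous ones at -18.3 and -19.8. The next component held 29.4% and parted the heterozygous replicates, at -20.9 and 20.1, while both homozygous ones lay at 0.236 and 0.553. The heterozygous pair therefore stood further apart, and a chi-square over its degrees of freedom was 6.92 between the homozygous replicates and 39.3 between the heterozygous ones.

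Marker genes placed all 4 libraries in the gastrula. In a principal component analysis of all 8 libraries, the first component held 76.0% of the variance and parted the stages. The stage 5 libraries lay at -56.2 to -42.1, the homozygous gastrulae at 49.7 and 51.1, and the heterozygous ones at 38.9 and 48.8. Heterozygous stage 6-7 replicate 1 thus lay nearest to stage 5, and the part of stage in the genotype differences was not tested. The mesoderm markers twi, sna, Mef2 and htl summed to 753 and 747 CPM in homozygotes, against 678 and 807 CPM in heterozygotes, and the neurectoderm markers vnd, ind, SoxN and l(1)sc to 587 and 559.6 CPM in homozygotes, against 516 and 590.1 CPM in heterozygotes. Genes of the cellularizing blastoderm summed to 178 CPM in each homozygous library, against 229 and 205 CPM in the heterozygous ones, and to 2943 to 4005 CPM in the stage 5 libraries. Of these, Sry-alpha was at 0 in all 4 gastrula libraries, and nullo lay between 0.0809 and 0.303 CPM. Markers of endoderm and hemocytes (srp, GATAe, fkh) summed to 350.2 and 349 CPM in homozygotes, against 362 and 441 CPM in heterozygotes, and those of pole cells (nanos, pgc, ovo) to 68.9 and 61.1 CPM, against 62.1 and 75.4 CPM. Markers of later embryos summed to 174 and 181 CPM in homozygotes, against 162 and 178 CPM in heterozygotes, of which elav, also read in young neurectoderm, gave nearly all. Eggshell and yolk genes stayed at 1.74 CPM or less in total. Amnioserosa primordium markers (zen, peb, tup, Ance) stood furthest apart between the genotypes of these sets, with 172 and 161 CPM in homozygotes, against 348 and 399 CPM in heterozygotes.

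RNA of zen itself (FBgn0004053, arm 3R, 6752864 to 6754194 on BDGP6.54) stood at 58.9 and 53.8 CPM in homozygotes, against 40.98 and 58.2 CPM in heterozygotes. The groups overlapped and the difference did not pass the test (log2 0.18, SE 0.139, adjusted p = 1), so transcript level does not check the genotype labels. The neighbouring paralogue zen2 had 16.5 and 14.7 CPM in homozygotes, against 16.6 and 26.98 CPM in heterozygotes, with a log2 difference of -0.48 (SE 0.186, adjusted p = 0.427). All of its homozygous values lay under the heterozygous ones, by a narrow margin, and without heterozygous stage 6-7 replicate 1 it was called lower (adjusted p = 0.0173), as it was without the low-count filter.

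At stage 6-7, 166 genes were called, 1.77% of those tested, with 117 lower (1.25%) and 49 higher (0.524%) in homozygotes. The 2 homozygous libraries lay outside the range of the heterozygous ones for each of the 166, as they did in the lower direction for 16.2% and in the higher direction for 20% of all tested genes. Falls were deeper than rises, with a median log2 change of -1.59 against 0.90, and 44 falls but no rise exceeded 4-fold. Off chromosome 3 the calls were 30 falls, 0.583% of 5142 tested genes, and 0 rises by edgeR. Before adjustment 71 higher genes off chromosome 3 (1.38%) had a p under 0.05, and 2 (0.0389%) were called by each of DESeq2 and limma-voom. On chromosome 3 they were 83 falls (2.05% of 4045 tested genes) and 47 rises (1.16%), 3.21% in either direction. Over all genes, 706 (7.54%) had a p under 0.05 before adjustment. DESeq2 called 1.43% lower and 0.673% higher, and limma-voom 1.24% lower and 0.556% higher. Without homozygous stage 6-7 replicate 1 or replicate 2 the calls numbered 105 and 89, with 16 and 13 falls off chromosome 3, and without heterozygous stage 6-7 replicate 2 they numbered 105, with 15 such falls.

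**Figure D1:**
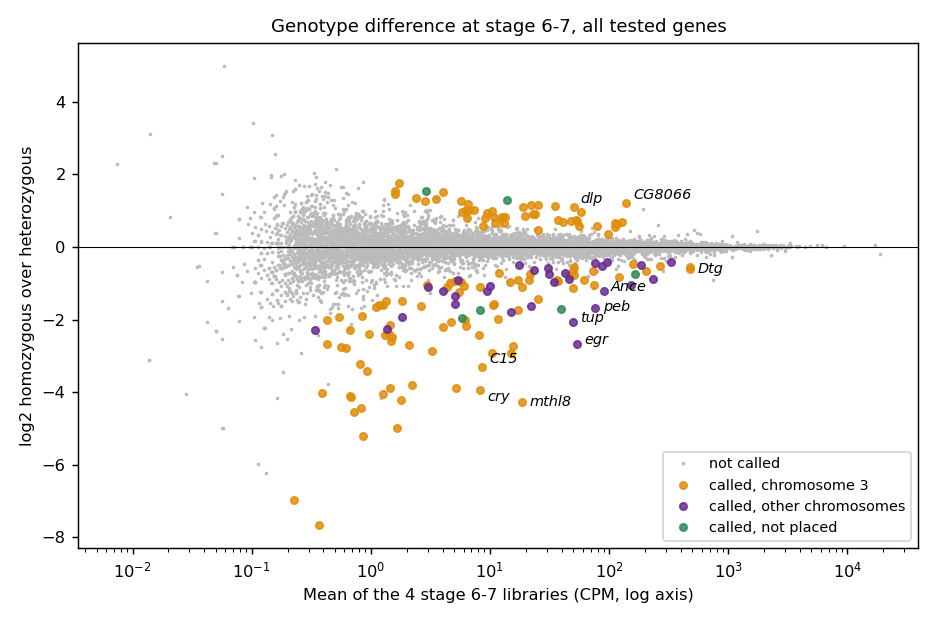
Genotype difference of every tested gene at stage 6-7 (y axis, log2 homozygous over heterozygous) against its mean level over the 4 libraries (x axis, CPM on a log scale). Called genes are coloured by chromosome, and those off chromosome 3 all lie below 0, down to -2.67 for egr.

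By arm, the share of tested genes called lower was 0.323% on X, 0.492% on 2L and 0.915% on 2R. It was 2.10% on 3L and 2.01% on 3R, and no gene was called on chromosome 4. The falls off chromosome 3 were fewer but sat in genes of higher level, with a median of 31.0 CPM over the 4 libraries, against 5.08 CPM for the falls on chromosome 3. In homozygotes 36 of the 83 falls on chromosome 3 lay under 1 CPM, as did 3 of the 30 off it. The falls on chromosome 3 had a median log2 change of -1.92, with 19 beyond 8-fold, against a median of -1.06 and none beyond 8-fold off it.

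**Figure D2:**
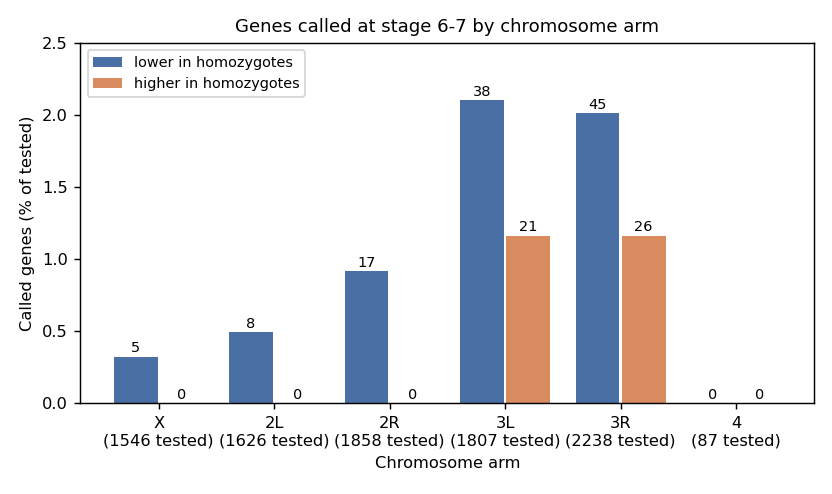
Percentage of tested genes called lower (left bar) and higher (right bar) in homozygotes at stage 6-7 on each chromosome arm, with the number of called genes above each bar. Rises appear on 3L and 3R alone, 21 and 26 genes, while falls appear on every arm but 4.

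Genes of the amnioserosa and dorsal ectoderm were among the falls. Of 14 listed genes of these tissues, all tested, 8 fell, where 1.25% of all tested genes did, and 0 rose, with a median log2 difference of -0.76, against 0.01 over all tested genes. The list was chosen with earlier results of these data known, so its count is not independent of them. Of the 8, C15, Doc2 and Dtg lie on chromosome 3, and peb, tup, ush, Ance and egr off it. In whole embryos, fewer cells of a type and less RNA per cell cannot be told apart. The LIM-homeodomain gene tup (FBgn0003896, arm 2L, 18859507 to 18881261), which keeps amnioserosa cells intact until germ band retraction, had 20.3 and 18.4 CPM in homozygotes, against 73.1 and 88.3 CPM in heterozygotes. Homozygotes thus held 23.98% of the heterozygous level, with no overlap between the groups (log2 -2.06, SE 0.135, adjusted p = 8.85e-07). The zinc-finger gene peb, needed for the amnioserosa to stay an epithelium, had 41.5 and 31.9 CPM in homozygotes, against 111 and 123 CPM in heterozygotes, 31.4% of the heterozygous level in homozygotes (log2 -1.67, SE 0.137, adjusted p = 8.88e-06). For the homeobox gene C15, which acts in the amnioserosa downstream of Dpp, the values were 1.94 and 1.23 CPM in homozygotes, against 13.1 and 18.3 CPM in heterozygotes. This was the deepest fall of the list, to 10.1% of the heterozygous level (log2 -3.30, SE 0.250, adjusted p = 4.27e-06), and its raw counts were 72 and 42 reads in homozygotes, against 477 and 632 reads in heterozygotes.

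The cofactor gene ush, whose product binds GATA factors, had 100.2 and 96.8 CPM in homozygotes, against 189 and 220.3 CPM in heterozygotes, and homozygotes again lay below both heterozygous libraries (log2 -1.06, SE 0.106, adjusted p = 7.21e-05). Reads of ush may include some of lncRNA:CR46258, which overlaps it. Its GATA partner pnr, a selector gene of the dorsal ectoderm, had 88.6 and 93.2 CPM in homozygotes, against 131 and 144 CPM in heterozygotes. The pnr groups did not overlap, but the difference did not pass by edgeR (log2 -0.60, SE 0.177, adjusted p = 0.21), and edgeR called it lower without homozygous stage 5 replicate 1 or replicate 2 (adjusted p = 0.000592 and 0.000406), with the stage 6-7 libraries alone and without the low-count filter. By limma-voom pnr was lower (adjusted p = 0.0297), and by DESeq2 it did not pass (adjusted p = 0.734). The 3 T-box genes Doc1, Doc2 and Doc3 lie side by side on 3L and act together in amnioserosa and dorsal mesoderm, and 1 of them was called. Doc2 fell, with 46.8 and 39.2 CPM in homozygotes, against 76.6 and 84.1 CPM in heterozygotes (log2 -0.90, SE 0.109, adjusted p = 0.000298). Doc1 had 88.3 and 84.3 CPM in homozygotes, against 92.2 and 106 CPM in heterozygotes (log2 -0.20, adjusted p = 0.689) and Doc3 had 97.8 and 89.2 CPM in homozygotes, against 95.6 and 120.5 CPM in heterozygotes (log2 -0.21, adjusted p = 0.787), and neither was called. Kr, a gap gene that is later read in the amnioserosa, had 147 and 132 CPM in homozygotes, against 121 and 139 CPM in heterozygotes, with overlapping groups (log2 0.11, adjusted p = 1).

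Effector genes of the list fell too. Ance, which encodes a secreted angiotensin-converting enzyme homologue and is a widely used amnioserosa marker, had 51.3 and 56.9 CPM in homozygotes, against 123 and 129.9 CPM in heterozygotes (log2 -1.22, SE 0.0937, adjusted p = 4.36e-06). Dtg, a target of Dpp signalling, had the highest level of the list, with 387 and 369.9 CPM in homozygotes, against 589.9 and 568 CPM in heterozygotes. Its fall was shallow, to 65.4% of the heterozygous level, and the groups stood well apart (log2 -0.61, SE 0.0967, adjusted p = 0.00259). Against a 1.5-fold change neither Dtg nor Doc2 was called, nor was egr, which follows. The gene egr, which encodes the only TNF-family ligand known in the fly, had 15.1 and 14.1 CPM in homozygotes, against 98.5 and 87.5 CPM in heterozygotes. Homozygotes held 15.7% of the heterozygous level (log2 -2.67, SE 0.349, adjusted p = 0.0249), and the call was lost without any single gastrula library (adjusted p = 0.401 without homozygous stage 6-7 replicate 1, 0.458 without homozygous stage 6-7 replicate 2, 0.163 without heterozygous stage 6-7 replicate 1 and 0.156 without heterozygous stage 6-7 replicate 2).

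Per kilobase of annotated exon, and so on a scale that allows genes to be compared, levels in homozygotes and heterozygotes ordered the list differently. Dtg was highest in both, at 154 CPM per kb in homozygotes and 235 in heterozygotes. Doc3 and Doc1 came next in both, at 64.6 and 62.3 CPM per kb in heterozygotes and 55.9 and 54.1 in homozygotes. In heterozygotes egr (42.9 CPM per kb) and Ance (57.9) ranked above zen (39.2), tup (24.4) and C15 (8.47). In homozygotes egr stood at 6.75 CPM per kb, Ance at 24.8, tup at 5.84 and C15 at 0.855, while zen stood at 44.5.

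**Figure D3:**
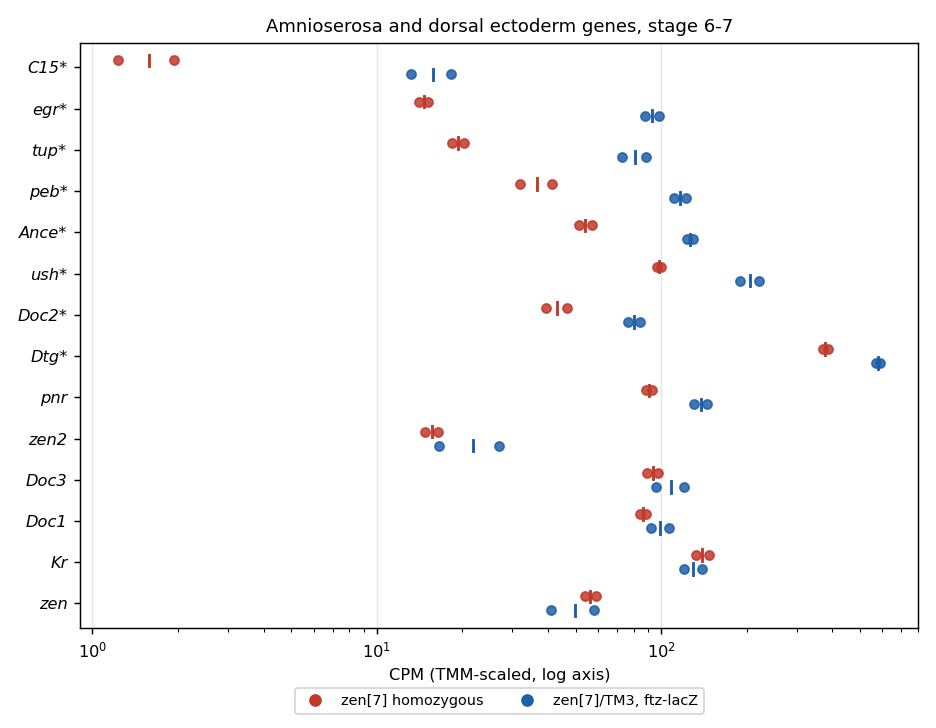
Levels of the 14 amnioserosa and dorsal ectoderm genes in the 4 stage 6-7 libraries (x axis, CPM on a log scale). Dots are libraries, bars are group means with homozygotes above heterozygotes, genes run from the deepest fall to the largest difference in the other direction, and stars mark the 8 called genes.

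In the Dpp pathway, 3 of 18 tested members fell, where 1.25% of all tested genes did, and 0 rose, with a median log2 difference of 0.01, and all 3 encode secreted proteins that handle the ligand. The protease gene tok, a relative of tolloid that can cleave the Dpp antagonist Sog, had 47.4 and 49.6 CPM in homozygotes, against 97.6 and 103 CPM in heterozygotes. Homozygotes held 48.3% of the heterozygous level (log2 -1.05, SE 0.0875, adjusted p = 8.88e-06). The gene tsg encodes a partner of Sog in carrying Dpp to the dorsal midline and had 6.26 and 6.57 CPM in homozygotes, against 14.5 and 12.3 CPM in heterozygotes (log2 -1.07, SE 0.157, adjusted p = 0.00159). The BMP-binding protein gene cv-2 had 76.6 and 67.2 CPM in homozygotes, against 102 and 106 CPM in heterozygotes (log2 -0.53, SE 0.117, adjusted p = 0.0312), a call that ended without any single gastrula library (adjusted p = 0.0717 without homozygous stage 6-7 replicate 1, 0.468 without homozygous stage 6-7 replicate 2, 0.0909 without heterozygous stage 6-7 replicate 1 and 0.18 without heterozygous stage 6-7 replicate 2). The ligand gene dpp had 63.2 and 63.2 CPM in homozygotes, against 48.9 and 60.2 CPM in heterozygotes (log2 0.21, SE 0.107, adjusted p = 0.749), and scw, which encodes its early partner ligand, had 6.39 and 3.82 CPM in homozygotes, against 8.29 and 5.48 CPM in heterozygotes (log2 -0.43, adjusted p = 1). Values of the antagonist gene sog were 361 and 361 CPM in homozygotes, against 332 and 356 CPM in heterozygotes (log2 0.07, SE 0.0987, adjusted p = 1). The receptor genes tkv and sax had log2 differences of 0.04 and 0.07, the transducer gene Mad -0.11, and the repressor gene brk 0.00, and none of these was called. Other secreted modulators went the other way without a call. The tolloid gene tld had 89.4 and 89.2 CPM in homozygotes, against 76.4 and 65.8 CPM in heterozygotes (log2 0.33, SE 0.0941, adjusted p = 0.141), and cv a log2 difference of 0.15. The fall in tok, on 3R, came with falls of tsg on X and cv-2 on 2R, with sog, tld, cv, ligands, receptors and transducers not called.

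Among glypicans and enzymes of heparan sulfate synthesis, which shape the spread of Dpp, Wnt and Hedgehog ligands, 0 of 14 tested members fell. Of the 14, 1 rose, where 0.524% of all tested genes did. This was the glypican gene dlp, with 64.6 and 72.9 CPM in homozygotes, against 29.4 and 34.5 CPM in heterozygotes. The homozygous level was 2.15 times the heterozygous one, and the groups stood far apart (log2 1.11, SE 0.119, adjusted p = 0.000113). The other glypican gene, dally, had 52.3 and 60.8 CPM in homozygotes, against 34.4 and 56.9 CPM in heterozygotes (log2 0.31, adjusted p = 1), and Notum, whose product releases glypican-bound ligand, had 48.2 and 48.6 CPM in homozygotes, against 32.8 and 42.9 CPM in heterozygotes (log2 0.36, adjusted p = 0.355). Neither was called.

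Ligands of receptor tyrosine kinases were mostly not called. Of 11 tested genes of the FGF pathway and tracheal primordium 1 fell, where 1.25% of all tested genes did. This was the FGF ligand gene bnl, with 13.5 and 13.6 CPM in homozygotes, against 32.1 and 41.6 CPM in heterozygotes (log2 -1.44, SE 0.156, adjusted p = 0.000113). The other FGF ligand genes, pyr and ths, which guide mesoderm spreading, had log2 differences of 0.27 and 0.19 (adjusted p = 0.876 and 1). In the EGF receptor pathway edgeR called 0 of 16 tested members, as did DESeq2 and limma-voom, and 4 had an unadjusted p under 0.05. The smallest p was that of aos, a secreted inhibitor, with 57.2 and 55.5 CPM in homozygotes, against 69.9 and 73.4 CPM in heterozygotes (log2 -0.35, adjusted p = 0.234). It was called lower with the stage 6-7 libraries alone, and without homozygous stage 5 replicate 1 or replicate 2 (log2 -0.34 and -0.35).

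Of 14 tested genes of the Eiger and JNK pathway and of dorsal closure, 2 fell, where 1.25% of all tested genes did. These were egr and the Fos gene kay, an AP-1 subunit that dorsal closure requires. For kay the values were 4.83 and 5.58 CPM in homozygotes, against 13.9 and 17.7 CPM in heterozygotes, and homozygotes held 32.9% of the heterozygous level (log2 -1.60, SE 0.173, adjusted p = 0.000113). The receptor genes of Eiger, grnd and wgn, had log2 differences of -0.18 and 0.28, the kinase genes hep and bsk 0.08 and -0.03, and the JNK target puc 0.11, and edgeR called none of them. Of 13 tested cell death genes 1 rose, where 0.524% of all tested genes did. This was p53, with 9.68 and 10.1 CPM in homozygotes, against 5.57 and 4.11 CPM in heterozygotes (log2 1.03, SE 0.198, adjusted p = 0.0117). Its call was lost against a 1.5-fold change and in some settings that leave out a library (adjusted p = 0.0781 without homozygous stage 6-7 replicate 2 and 0.131 without heterozygous stage 6-7 replicate 2), and it lies antisense to asRNA:CR46089, so with the strand setting not given their reads cannot be told apart. The death activators rpr, hid and skl had log2 differences of 0.30, -0.46 and -0.03, the caspase gene Dronc -0.53 (adjusted p = 0.0585), and edgeR and limma-voom called none of these. DESeq2 called Dronc lower (adjusted p = 0.0081). Among the called genes of these pathways, bnl, kay and p53 lie on 3R and dlp on 3L. There, as for genes off chromosome 3, homozygosity for zen[7] and the exchange of TM3 cannot be told apart.

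The falls off chromosome 3 lie on chromosomes that the labels give no difference for, though TM3 itself still differs between the genotypes compared. Among the 20 deepest of those with at least 5 CPM, 11 kept their call without each of the 8 libraries in turn. Of these, tsg, fra, lov, wun2 and MFS14 were not called against a 1.5-fold change. Already given above are tup, peb, Ance, ush and tsg. The others encode a cell cycle inhibitor, receptors, a nuclear factor and membrane proteins. The gene dap encodes the fly's p27-type inhibitor of cyclin E and Cdk2, which stops epidermal cells after their last embryonic division, and had 7.18 and 6.25 CPM in homozygotes, against 21.3 and 25.3 CPM in heterozygotes. Homozygotes held 28.8% of the heterozygous level (log2 -1.79, SE 0.165, adjusted p = 2.87e-05). Alk encodes a receptor tyrosine kinase best known from visceral muscle, and had 12.4 and 9.42 CPM in homozygotes, against 32.5 and 34.7 CPM in heterozygotes (log2 -1.62, SE 0.203, adjusted p = 0.000696), again with no overlap.

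The netrin receptor gene fra was the most abundant of these, with 164 and 167 CPM in homozygotes, against 284 and 327 CPM in heterozygotes (log2 -0.88, SE 0.0931, adjusted p = 0.000106). The BTB-domain nuclear factor gene lov had 34.7 and 30.8 CPM in homozygotes, against 60.2 and 59.2 CPM in heterozygotes (log2 -0.87, SE 0.0939, adjusted p = 0.000113), and reads of the overlapping CG43106 may be among them. The 2 heterozygous libraries of lov lay within 1 CPM of each other, and both homozygous ones far below. In stage 5 heterozygotes lov had 200 and 216 CPM and tsg 38.7 and 39.1 CPM, so both levels dropped with stage. Those of dap (10.1 and 7.61 CPM) and Alk (13.1 and 10.4 CPM) rose instead. The part of stage in the falls of lov and tsg was not tested. The gene wun2 encodes a lipid phosphate phosphatase known for guiding germ cells, and had 22.96 and 24.04 CPM in homozygotes, against 36.8 and 42.3 CPM in heterozygotes (log2 -0.75, SE 0.117, adjusted p = 0.00233). MFS14, which encodes a transporter of the major facilitator family, had 32.6 and 32.1 CPM in homozygotes, against 55.8 and 50.3 CPM in heterozygotes (log2 -0.71, SE 0.108, adjusted p = 0.00194). Each of dap, Alk, fra and wun2 was also called lower at stage 5, with log2 changes of -0.84, -1.86, -0.66 and -0.64, while lov (-0.20) and MFS14 (-0.46) were not.

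**Figure D4:**
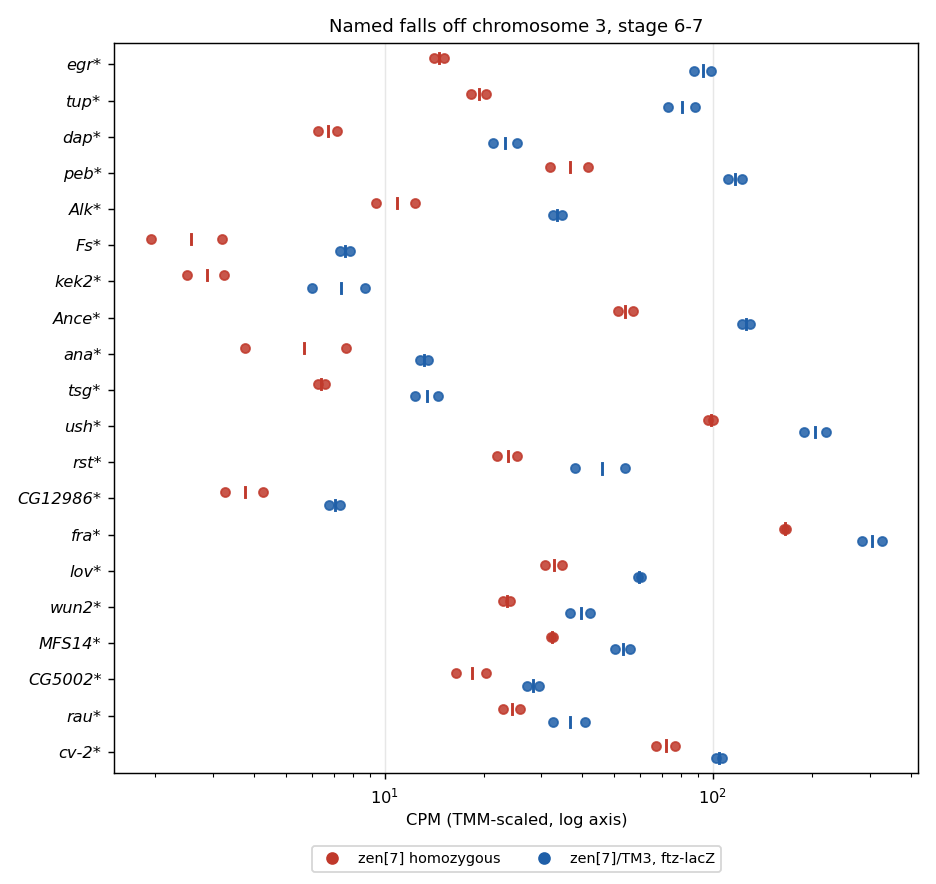
Levels of the 20 deepest falls off chromosome 3 among called genes with at least 5 CPM, in the 4 stage 6-7 libraries (x axis, CPM on a log scale). Dots are libraries and bars are group means with homozygotes above heterozygotes, genes run from the deepest fall down, and in each gene both homozygous libraries lie left of both heterozygous ones.

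The remaining 9 of the 20 lost their call without at least 1 library. They include egr and cv-2 above. The follistatin gene Fs, whose product binds activin-type ligands, had 3.18 and 1.94 CPM in homozygotes, against 7.30 and 7.85 CPM in heterozygotes (log2 -1.56, adjusted p = 0.00363, and 0.0602 without homozygous stage 6-7 replicate 2). It lies antisense to CG8079 and asRNA:CR44370. The Kekkon-family gene kek2 had 3.24 and 2.49 CPM in homozygotes, against 8.68 and 6.00 CPM in heterozygotes (log2 -1.35, adjusted p = 0.00726, and 0.0942 without homozygous stage 6-7 replicate 2 and 0.0799 without heterozygous stage 6-7 replicate 1). For rst, which encodes an immunoglobulin adhesion protein, values were 25.3 and 22.01 CPM in homozygotes, against 38.03 and 53.8 CPM in heterozygotes (log2 -0.95, adjusted p = 0.00743, and 0.0938 without homozygous stage 6-7 replicate 2 and 0.0756 without heterozygous stage 6-7 replicate 2), and the heterozygous replicates stood apart.

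The secreted glycoprotein gene ana, known as a brake on neuroblast division in the larva, had 7.61 and 3.76 CPM in homozygotes, against 12.8 and 13.5 CPM in heterozygotes, with the homozygous replicates far apart (log2 -1.20, adjusted p = 0.0366). It lies antisense to asRNA:CR45924, and its call was lost in 4 settings that leave out a library (adjusted p = 0.0517 without heterozygous stage 5 replicate 1, 0.277 without homozygous stage 6-7 replicate 2, 0.163 without heterozygous stage 6-7 replicate 1 and 0.23 without heterozygous stage 6-7 replicate 2). The last 3 were CG12986, CG5002 and rau, with log2 changes of -0.90, -0.62 and -0.59. CG12986 lost its call without each gastrula library in turn (adjusted p = 0.0666 without homozygous stage 6-7 replicate 1, 0.525 without homozygous stage 6-7 replicate 2, 0.0799 without heterozygous stage 6-7 replicate 1 and 0.179 without heterozygous stage 6-7 replicate 2). CG5002 did so without 3 of them (adjusted p = 0.465 without homozygous stage 6-7 replicate 1, 0.0665 without heterozygous stage 6-7 replicate 1 and 0.191 without heterozygous stage 6-7 replicate 2). For rau the values were 0.0523 without heterozygous stage 5 replicate 1, 0.0992 without homozygous stage 6-7 replicate 1, 0.453 without homozygous stage 6-7 replicate 2 and 0.333 without heterozygous stage 6-7 replicate 2.

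Outside the named 20, and chosen after their values were seen, the other falls off chromosome 3 were the bHLH gene net, tutl, Btk, psq, the eye colour transporter gene w, sano, dpr1, CG2269, sut4 and CG8860. The highest of them, psq, encodes a BTB-domain chromatin protein and had 282 and 287 CPM in homozygotes, against 345 and 407 CPM in heterozygotes (log2 -0.40, SE 0.0905, adjusted p = 0.0366). CG2269 and sut4 are next to egr on 2R, with 959 bp between egr and CG2269, and all 3 neighbours were called lower. CG2269 had 0.540 and 0.411 CPM in homozygotes, against 2.78 and 1.77 CPM in heterozygotes and sut4 had 0.0540 and 0.176 CPM in homozygotes, against 0.661 and 0.464 CPM in heterozygotes, both far under the level of egr. The spans of CG2269 and sut4 overlap. Over the genome, 20 pairs of neighbouring tested genes were both called, 17 of them in the same direction and 17 of them on chromosome 3. Of the 160 placed called genes, 130 lie on chromosome 3. Whether such pairs were more frequent than expected from the number of calls was not tested.

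On chromosome 3 the deepest falls named here went beyond those elsewhere. The G-protein-coupled receptor gene mthl8 had 1.59 and 2.11 CPM in homozygotes, against 36.1 and 35.1 CPM in heterozygotes, 19.3-fold lower in homozygotes (log2 -4.27, SE 0.210, adjusted p = 1.29e-07). The blue-light photoreceptor gene cry, a part of the circadian clock, had 1.03 and 0.998 CPM in homozygotes, against 15.7 and 15.3 CPM in heterozygotes (log2 -3.93, SE 0.229, adjusted p = 2.84e-07), and it overlaps lncRNA:CR46393 and, antisense, vib. The leucyl aminopeptidase gene S-Lap1 had 0.755 and 0.558 CPM in homozygotes, against 8.71 and 10.7 CPM in heterozygotes, raw counts of 28 and 19 reads in homozygotes, against 316 and 370 reads in heterozygotes (log2 -3.87, SE 0.224, adjusted p = 2.84e-07). In each of the 3 the replicates of a genotype lay close together and the genotypes more than 10-fold apart.

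Next came Sarm, which encodes a TIR-domain NADase known for axon degeneration, with 3.78 and 3.17 CPM in homozygotes, against 24.8 and 28.3 CPM in heterozygotes, and CG13653, with 4.37 and 3.82 CPM in homozygotes, against 23.1 and 31.2 CPM in heterozygotes. The homeobox gene HGTX, an Nkx6 relative of the ventral neurectoderm, had 2.54 and 2.58 CPM in homozygotes, against 9.95 and 17.6 CPM in heterozygotes (log2 -2.42, SE 0.251, adjusted p = 0.000105). It was the sole call among 16 tested genes of the neurectoderm list, where 1.77% of all tested genes were called. The heterozygous replicates of HGTX differed more than its homozygous ones. FucTA, which encodes an alpha1,3-fucosyltransferase and lies antisense to Msh6, had 2.19 and 2.35 CPM in homozygotes, against 8.57 and 12.03 CPM in heterozygotes. CG7900 had 3.16 and 1.73 CPM in homozygotes, against 9.89 and 9.91 CPM in heterozygotes, and the organic cation transporter gene Orct2 had 4.07 and 5.31 CPM in homozygotes, against 17.8 and 19.2 CPM in heterozygotes. Its neighbour Orct, 532 bp away, fell as well (log2 -2.19), as did CG6282, 161 bp from S-Lap1 (log2 -2.48). FBgn0003328, which the annotation used does not place, had 2.91 and 1.91 CPM in homozygotes, against 10.03 and 8.61 CPM in heterozygotes (log2 -1.94, SE 0.213, adjusted p = 0.000156).

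Z600, an early zygotic inhibitor of mitosis that overlaps gdl, had 2.19 and 2.70 CPM in homozygotes, against 21.00 and 15.8 CPM in heterozygotes (log2 -2.92, SE 0.344, adjusted p = 0.00957). It was the 1 called member of 9 tested genes of cellularization and early zygotic transcription, where 1.77% of all tested genes were called. Neither limma-voom (adjusted p = 0.0552) nor edgeR without the low-count filter called it, and its call ended in some settings that leave out a library (adjusted p = 0.169 without homozygous stage 6-7 replicate 1, 0.14 without homozygous stage 6-7 replicate 2 and 0.0545 without heterozygous stage 6-7 replicate 1). The summed cellularization markers stood at 178 CPM in each homozygous library, against 229 and 205 CPM in the heterozygous ones, and their part in the Z600 result was not tested. Within that list term had 141 and 145 CPM in homozygotes, against 191 and 162 CPM in heterozygotes (log2 -0.30, adjusted p = 0.224) and halo 32.8 and 28.6 CPM in homozygotes, against 32.7 and 38.9 CPM in heterozygotes (log2 -0.22, SE 0.176, adjusted p = 1).

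Of 11 tested genes of gut, GATA and hemocyte identity 1 fell, where 1.25% of all tested genes did. This was the GATA factor gene grn on 3R, also called lower at stage 5 (log2 -1.53, adjusted p = 0.000137). At stage 6-7 grn had 35.7 and 41.97 CPM in homozygotes, against 55.1 and 65.9 CPM in heterozygotes (log2 -0.64, SE 0.137, adjusted p = 0.0272). It lost its call in 5 settings that leave out a library (adjusted p = 0.0541 without heterozygous stage 5 replicate 1, 0.0598 without heterozygous stage 5 replicate 2, 0.382 without homozygous stage 6-7 replicate 1, 0.0555 without homozygous stage 6-7 replicate 2 and 0.264 without heterozygous stage 6-7 replicate 2), and also with library totals alone, with at least 10 CPM required in 2 libraries and against a 1.5-fold change. TM3 chromosomes carry visible mutations, and the labels do not say which of them this TM3 has. Of 4 tested genes that such mutations affect (kni, p, Ubx and Ser), all on chromosome 3, 1 fell, where 2.05% of tested genes on chromosome 3 did. This was the Notch ligand gene Ser. It had 0.324 and 0.499 CPM in homozygotes, against 1.57 and 2.87 CPM in heterozygotes (log2 -2.43, SE 0.460, adjusted p = 0.0107), all low levels, and the call ended without homozygous stage 6-7 replicate 1 or heterozygous stage 6-7 replicate 2 (adjusted p = 0.119 and 0.134). Among low genes, chosen after their values were seen, CG6688 had 0 and 0 reads in homozygotes, against 23 and 29 reads in heterozygotes. The larval storage protein gene Lsp1gamma, next to mthl8, had 2 and 1 reads in homozygotes, against 51 and 67 reads in heterozygotes.

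Rises were smaller and, where the annotation places them, all on chromosome 3. The largest named rise was FBgn0085799, not placed by the annotation used, with 21.4 and 18.5 CPM in homozygotes, against 8.74 and 7.36 CPM in heterozygotes (log2 1.31, SE 0.166, adjusted p = 0.000422). CG8066 was the most abundant of them, with 199.6 and 191 CPM in homozygotes, against 101 and 66.4 CPM in heterozygotes, and its heterozygous replicates differed widely (log2 1.23, SE 0.162, adjusted p = 0.00194). Its call did not hold in 1 setting (adjusted p = 0.0632 without homozygous stage 5 replicate 2). Hml, which encodes the clotting protein hemolectin of hemocytes, had 8.20 and 7.78 CPM in homozygotes, against 2.48 and 4.20 CPM in heterozygotes (log2 1.26, SE 0.279, adjusted p = 0.0342). No other tested hemocyte gene was called, with log2 differences of -0.23 for Pxn, 0.10 for crq and 0.37 for Sr-CI, and the Hml call was lost in 5 settings that leave out a library (adjusted p = 0.0575 without heterozygous stage 5 replicate 1, 0.0663 without heterozygous stage 5 replicate 2, 0.205 without homozygous stage 6-7 replicate 1, 0.141 without homozygous stage 6-7 replicate 2 and 0.24 without heterozygous stage 6-7 replicate 1), with library totals alone and against a 1.5-fold change.

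The nicotinic receptor subunit gene nAChRbeta2 had 49.8 and 46.5 CPM in homozygotes, against 21.7 and 22.5 CPM in heterozygotes (log2 1.12, SE 0.138, adjusted p = 0.000342). DZIP1, which lies 172 bp from it and encodes a cilium assembly protein, rose by a like amount, with 36.3 and 34.2 CPM in homozygotes, against 14.4 and 17.1 CPM in heterozygotes (log2 1.16, SE 0.172, adjusted p = 0.00194). The odorant-binding protein gene Obp99a had 31.02 and 30.6 CPM in homozygotes, against 12.7 and 14.9 CPM in heterozygotes, with no overlap (log2 1.16, SE 0.153, adjusted p = 0.000598). The gene tow had 27.4 and 24.1 CPM in homozygotes, against 12.9 and 10.8 CPM in heterozygotes (log2 1.12, SE 0.134, adjusted p = 0.000277). CG2321, antisense to Ptp99A, had 8.50 and 9.57 CPM in homozygotes, against 4.11 and 3.85 CPM in heterozygotes (log2 1.18, adjusted p = 0.0108), and its call ended without 3 of the gastrula libraries (adjusted p = 0.109 without homozygous stage 6-7 replicate 2, 0.0556 without heterozygous stage 6-7 replicate 1 and 0.0876 without heterozygous stage 6-7 replicate 2). Among the rises outside the named genes, chosen after their values were seen, the insulator protein gene su(Hw) had 134 and 133 CPM in homozygotes, against 93.8 and 88.01 CPM in heterozygotes, and the ubiquitin ligase gene Nedd4 had 73.2 and 79.2 CPM in homozygotes, against 38.96 and 39.5 CPM in heterozygotes. Both sets of homozygous libraries lay above the heterozygous ones (log2 0.55 and 0.96, adjusted p = 0.00162 and 0.000254).

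EdgeR called no listed gene of the mesoderm, the segments or the Hox, gap and terminal groups. Of 15 tested genes of the mesoderm and ventral furrow edgeR, DESeq2 and limma-voom called 0, and 0 had an unadjusted p under 0.05. The mesoderm selector genes twi and sna had 344 and 352 CPM in homozygotes, against 322 and 369 CPM in heterozygotes, and 195 and 191 CPM in homozygotes, against 168 and 199 CPM in heterozygotes. Their log2 differences were 0.01 and 0.07, and the smallest p of the list was that of the TNF receptor gene wgn (log2 0.28, adjusted p = 0.869). Among 10 pair-rule genes, which divide the trunk into segments, and 11 segment polarity genes, which pattern each segment, the 3 tools called 0, with 0 unadjusted p-values under 0.05. The smallest p-values were those of hry (log2 -0.16, adjusted p = 0.749) and Wnt4 (log2 -0.64, adjusted p = 0.846). In the Hox list of 10 genes all 3 tools called 0, and 1 had an unadjusted p under 0.05, Ubx, with 19.5 and 20.3 CPM in homozygotes, against 12.3 and 17.3 CPM in heterozygotes (log2 0.43, adjusted p = 0.369).

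Of 9 gap and terminal genes edgeR and limma-voom called 0, DESeq2 called 1 lower, and 1 had an unadjusted p under 0.05. This was hkb, a terminal gap gene of both ends of the gut, with 38.01 and 32.2 CPM in homozygotes, against 47.5 and 48.02 CPM in heterozygotes (log2 -0.44, SE 0.119, adjusted p = 0.102). Without homozygous stage 5 replicate 1 or replicate 2 edgeR called it lower as well (adjusted p = 0.0194 and 0.0133). In the JAK/STAT list of 8 genes the 3 tools called 0, 2 had an unadjusted p under 0.05, and the smallest was that of the phosphatase gene Ptp61F (log2 -0.24, adjusted p = 0.277).

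Lists of germ plasm, sex determination, heat shock, ribosomal protein, eggshell and later differentiation genes held no edgeR call either. Whether they report the make-up of a pool was not tested. The cellularization list, with its call of Z600, is given above. The 3 tools called 0 of 9 germ plasm and pole cell genes, of which 1 had an unadjusted p under 0.05, and the smallest p was that of aub (log2 -0.20, adjusted p = 0.626). They called 0 of 9 genes of sex determination and dosage compensation, 0 of 8 heat shock genes, 0 of 77 cytosolic ribosomal protein genes and 0 of 2 eggshell and yolk genes, with 0 unadjusted p-values under 0.05 in these 4 lists. Their genes of smallest p were msl-1 (log2 -0.14), Hsp27 (0.32), RpL32 (0.08) and Yp3 (-0.20). Of 9 genes of later differentiation edgeR and limma-voom called 0 and DESeq2 called 1 higher, and 1 had an unadjusted p under 0.05. This was Mlp84B, a muscle LIM protein gene on 3R, with 8.79 and 9.74 CPM in homozygotes, against 6.26 and 5.13 CPM in heterozygotes (log2 0.70, adjusted p = 0.0731). EdgeR called it higher without homozygous stage 5 replicate 1 or replicate 2 (log2 0.70 and 0.69), without the low-count filter and with either replicate block. At stage 5 edgeR called Mlp84B higher in homozygotes (log2 0.95, adjusted p = 0.0111).

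The gastrula difference was set against that of the same genotypes at stage 5, which came from other libraries, though both enter 1 fit and carry the same chromosome 3 difference. At stage 5, 152 genes were called (1.62%), 125 lower (1.34%) and 27 higher (0.288%). Of the 30 falls off chromosome 3 at stage 6-7, 14 were also called lower at stage 5 and 28 had the same sign (93.3%), against 50.2% of all tested genes off chromosome 3 that lay below 0 at stage 6-7. Of the 83 falls on chromosome 3 this was 33 and 79 (95.2%, against 57.6% of all tested genes on it that lay below 0). Of the 47 rises on it 10 were also called higher and 41 had the same sign (87.2%, against 59% of those above 0).

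The log2 differences of the stages were themselves compared by an interaction contrast, which called 7 genes, 0.0748% of those tested, with 629 (6.72%) under 0.05 before adjustment. For dlp, the stage 5 values were 38.6 and 37.7 CPM in homozygotes, against 50.9 and 43.2 CPM in heterozygotes, so homozygotes lay below heterozygotes there and above them in the gastrula. The stage 5 difference of dlp was not called by edgeR (log2 -0.30, adjusted p = 0.297). The difference between the stages was 1.41 on the log2 scale (SE 0.167, adjusted p = 0.00296). For mthl8 the stage 5 values were 10.4 and 6.50 CPM in homozygotes, against 28.3 and 30.8 CPM in heterozygotes, and the difference between the stages was -2.45, toward a deeper fall in the gastrula (SE 0.275, adjusted p = 0.00296). For Sarm they were 9.40 and 9.68 CPM in homozygotes, against 20.1 and 24.2 CPM in heterozygotes, with a difference of -1.72 (SE 0.205, adjusted p = 0.00296). These 3 calls held in all 12 alternative settings.

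No amnioserosa gene passed this comparison, and 7 of the 14 listed (peb, tup, ush, pnr, C15, Ance and Doc2) were already called lower at stage 5. C15 had a stage difference of -0.99, zen2 -0.71, Ance -0.49, Dtg -0.27, zen -0.21 and peb -0.10. Doc2 had 0.01, Kr and Doc1 0.14 each, and Doc3 0.22. The stage difference of tup was -0.76 (SE 0.187, adjusted p = 0.208) and that of egr -1.54 (SE 0.464, adjusted p = 0.584), both toward a deeper fall in the gastrula. That of ush was 0.54 (SE 0.151, adjusted p = 0.291) and that of pnr 0.89 (SE 0.265, adjusted p = 0.404), both toward a smaller difference in the gastrula. Z600, with 391 and 232 CPM in homozygotes, against 351 and 305 CPM in heterozygotes at stage 5, had a stage difference of -2.84 that did not pass (adjusted p = 0.131).

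**Figure D5:**
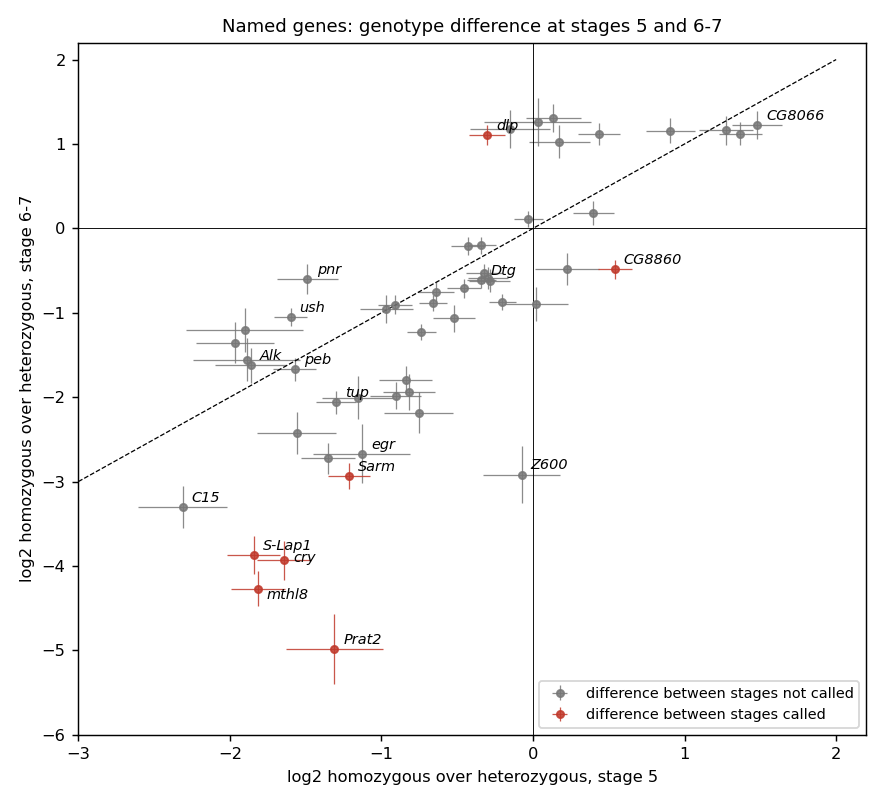
Genotype difference at stage 6-7 (y axis) against that at stage 5 (x axis), both log2 homozygous over heterozygous with bars of 1 SE, for the amnioserosa list, the genes named by size of change and the 7 genes whose difference changed between stages (red). The dashed line marks equal differences; dlp lies above it, and mthl8, cry, S-Lap1, Sarm, Prat2 and CG8860 lie below it.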

How the data were processed

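Each library has a table, deposited by the authors, of raw read counts by gene. STAR and HTSeq are named in the submitters' processing notes. Tool versions, genome build, annotation and strandedness of the counting were not given in the sources used here. Where genes overlap or lie antisense, their reads may therefore be shared. Per the labels' protocols, total RNA of pooled embryos was treated with DNase and sequenced as 100 bp read pairs with 200 bp inserts. The summary lines that name no gene (14.8% to 18.2% of each stage 6-7 table) were left out. Positions and symbols came from Ensembl 115 (BDGP6.54), which matched 17188 of 17468 IDs and placed 160 of the 166 called genes.

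Genes were kept by filterByExpr with a minimum count of 10, and counts were scaled by TMM (stage 6-7 factors 1.06 to 1.07) and tested in R 4.3.3 by the robust quasi-likelihood F test of edgeR 4.0.16, with 1 mean for each of 4 groups over all 8 libraries. Tests are 2-sided, p-values are adjusted over 9360 genes, and SE is the absolute log2 change over the square root of F. The spread behind every p-value is that between replicate libraries. The fit was tested on simulated data.

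Named genes were all of the amnioserosa list, the 15 deepest falls and 10 largest rises with a mean of at least 5 CPM and groups that do not overlap, the 20 deepest falls off chromosome 3 by the same criteria, and the called or smallest-p members of 23 lists. The lists, the comparison and the rules were chosen with earlier results of these data known. A rise of that kind off chromosome 3 was not found. Alternatives were RLE factors, library totals, other filters, DESeq2 1.42.0, limma-voom (limma 3.58.1), the stage 6-7 libraries alone, genes off chromosome 3 alone, replicate terms, glmTreat and leaving out each library, which leaves a lone library assumed to vary like the other groups.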

Additional observations from a re-analysis of the deposited data

Results flagged for a closer look

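The genotype difference itself differed between stage 6-7 and stage 5 for 7 genes (interaction contrast, edgeR quasi-likelihood test, adjusted p under 0.05). The stage differences of dlp (1.41 on the log2 scale), mthl8 (-2.45) and Sarm (-1.72) are described above.

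For cry the stage difference was -2.29 (SE 0.296, adjusted p = 0.0055), with stage 5 values of 10.8 and 6.61 CPM in homozygotes, against 26.3 and 27.8 CPM in heterozygotes. It did not pass by limma-voom (adjusted p = 0.0617) or in some settings that leave out a library (adjusted p = 0.0536 without heterozygous stage 5 replicate 1 and 0.055 without heterozygous stage 5 replicate 2). S-Lap1 had a stage difference of -2.03 (SE 0.294, adjusted p = 0.0155), with stage 5 values of 4.54 and 3.75 CPM in homozygotes, against 14.3 and 15.3 CPM in heterozygotes, and lost the call by limma-voom and in 3 settings that leave out a library (adjusted p = 0.0888 without heterozygous stage 5 replicate 1, 0.0667 without heterozygous stage 5 replicate 2 and 0.147 without homozygous stage 6-7 replicate 2).

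Prat2, a gene of purine synthesis on 3L, had 4 and 3 reads in homozygotes, against 121 and 108 reads in heterozygotes at stage 6-7, and 0.929 and 0.531 CPM in homozygotes, against 1.74 and 1.83 CPM in heterozygotes at stage 5. Its stage difference of -3.68 (SE 0.569, adjusted p = 0.0239) rests on those few homozygous reads and was lost by limma-voom and in 6 settings that leave out a library (adjusted p = 0.0729 without homozygous stage 5 replicate 1, 0.0888 without heterozygous stage 5 replicate 1, 0.0876 without heterozygous stage 5 replicate 2, 0.119 without homozygous stage 6-7 replicate 1, 0.147 without homozygous stage 6-7 replicate 2 and 0.0648 without heterozygous stage 6-7 replicate 1).

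CG8860, on 2R and antisense to asRNA:CR45264, had 14.2 and 15.2 CPM in homozygotes, against 19.7 and 21.5 CPM in heterozygotes at stage 6-7, where it was called lower, and 21.9 and 22.6 CPM in homozygotes, against 15.3 and 15.4 CPM in heterozygotes at stage 5, where it was called higher. Its stage difference was -1.03 (SE 0.160, adjusted p = 0.0239), and the call ended by limma-voom and in 5 settings that leave out a library (adjusted p = 0.163 without heterozygous stage 5 replicate 1, 0.113 without heterozygous stage 5 replicate 2, 0.141 without homozygous stage 6-7 replicate 1, 0.147 without homozygous stage 6-7 replicate 2 and 0.0555 without heterozygous stage 6-7 replicate 2).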

How the results depend on the processing

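No called named gene changed direction in any setting. Of the uncalled named genes, zen (to -0.05), msl-1 (to 0.03) and RpL32 (to -0.06) changed sign without a heterozygous stage 6-7 library. Of 49 called named genes, 33 kept their call without each of the 8 libraries and 16 did not. Over all settings, 109 values lost a call and 22 gained 1. These counts join the named genes at stage 6-7 with the stage differences of the 7 genes called for them. Leaving out libraries gave 89 to 218 calls in place of 166, 20 to 72 higher, 69 to 146 lower, 71 to 173 on chromosome 3, 13 to 35 lower and 0 to 4 higher off it, 7 to 9 falls in the amnioserosa list, and 3 to 296 stage differences in place of 7, the last without homozygous stage 5 replicate 2. Without the low-count filter 285 genes were called, 100 higher and 185 lower, 224 on chromosome 3 and 10 higher off it. With at least 10 CPM in 2 libraries 88 were called, 29 higher and 59 lower, 66 on chromosome 3 and 17 lower off it. Against 1.5-fold 63 were called, 8 higher and 55 lower, 50 on chromosome 3, 8 lower off it and 5 in the amnioserosa list. Fitted alone, genes off chromosome 3 gave 17 falls. DESeq2, limma-voom and the stage 6-7 libraries alone called 2, 2 and 1 rises off chromosome 3, and DESeq2 and limma-voom 57 and 3 stage differences. Library totals alone ended the calls of grn, Hml, cv-2 and rau, the 10 CPM filter those of grn, cv-2, ana and CG5002, and leaving out the low-count filter those of egr and Z600. The cause of these shifts was not tested. Fold changes of genes under 1 CPM rest on few reads.

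Deviations of same-numbered homozygous and heterozygous libraries correlated at -0.00243 at stage 6-7 and 0.0038 at stage 5 across genes, and replicate numbers were not taken as pairs. With a replicate block 196 genes were called, with 2 rises off chromosome 3, 7 amnioserosa genes and 38 stage differences. With a replicate block within stage 75 genes were higher, 6 of them off chromosome 3, of 233 called. Of the called named genes egr lost its call under both blocks (adjusted p = 0.121 and 0.365).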
